A study of Verbena bonariensis with 6 samples.

Results

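The bZIP transcription factors that answer the hormone abscisic acid (ABA) were followed in leaves of Verbena bonariensis after cold. A cluster is the unit of the deposited table, a transcript sequence that stands for a gene or for a variant of one. Clusters of the bZIP family were taken as members where the name of their best match in the NR or the Swissprot protein collection contained ABI5, ABSCISIC ACID-INSENSITIVE 5, ABF, AREB or DPBF. This gave 19 of the 397 bZIP clusters and of the 9740 clusters in the table, which was limited to transcription factors and other regulators. The 19 clusters carried 7 different NR entries and 5 different Swissprot entries. All 19 were found by the Swissprot name and 10 of them also by the NR name. All 19 also carried the orthology name ABF, which 15 further bZIP clusters of the table shared, all of them matched in NR to G-box-binding factor 4 or its like.

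ABI5 and the ABF proteins (also called AREB) are leucine zipper proteins that bind the ABA-responsive element, a short promoter motif built on a G-box core. In Arabidopsis thaliana, ABA binds its receptors, the type 2C phosphatases that hold back SnRK2 kinases are then inhibited, and the freed kinases phosphorylate these bZIP proteins, which switch on genes for protective proteins such as dehydrins. ABF2 and ABF4 act there mainly in leaves and roots under water and salt stress, whereas ABI5 and the DPBF proteins are best known from seeds. Activity is thus set by phosphorylation as well as by the amount of message, and only the message was measured here.

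The plants were 3-month-old seedlings of the strain Finesse, grown with 16 h of light at 25°C by day and 16°C by night. The cold group spent 24 h at 4°C and, following that, 4 h at −4°C, while the control group was left as it was. Each group had 3 libraries of leaf RNA, which the labels call biological replicates, and no transgene or mutation is given for either group. The cold group saw chilling and freezing in sequence, so the effects of these steps cannot be told apart.

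The table held 991180 to 1213366 estimated counts in the control libraries and 722556 to 791041 in the cold libraries. These were 5.85 to 5.86% of the reads of a whole control library and 5.52 to 5.53% of a cold one, where the whole-library totals (16949836 to 20694706 and 13075953 to 14320559 reads) were worked out from the ratio of count to FPKM. A count of 3, taken as the floor of detection, stood for 0.145 to 0.177 whole-library CPM in control and for 0.210 to 0.229 in cold libraries. Replicates of each group differed by more than sampling noise. Over the 2078 to 2152 clusters of moderate count in each pair of libraries, the mean chi-square was 12.7 to 14.7 per cluster. The median was lower, at 2.96 to 3.36, so part of the clusters raised the mean. The coefficient of variation between replicates fitted by edgeR was 0.639 for clusters and 0.157 for counts summed by NR entry. No library was a copy of another. Among leaf markers, the summed FPKM of 31 GLK clusters was 120 to 127 in control and 106 to 107 in cold libraries, that of 17 plastid sigma factor clusters 97.0 to 97.2 and 256 to 271, and that of 27 YABBY clusters 33.7 to 39.1 and 55 to 63.2. Of the guard cell factors, FAMA stood at 12.5 to 13.8 and 13.4 to 18.1 FPKM, SPEECHLESS at 0.39 to 0.54 and 1.08 to 1.31, and MUTE at 0.1 to 0.5 and 0.6 to 1.56, and no cluster was named MYB60. The 97 clusters named for the phloem factor APL were at 162 to 170 and 212 to 215. Of the markers of other organs, only DEFICIENS/APETALA3 had clusters, at 1.20 to 1.83 FPKM in control and 0 to 0.0800 in cold libraries, and no cluster was named AGAMOUS, PISTILLATA, SEPALLATA, ABI3, LEC1 or FUSCA3. The part of these shifts in the results below was not tested, and in bulk leaves fewer cells of a type and less RNA per cell cannot be told apart.

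The summed ABI5/ABF message was higher in cold leaves, and its parts moved unequally. The sums of the clusters matched to ABF2 rose with the largest fold, those matched to DPBF3 and ABF4 also rose, the sum of those matched to DPBF4 fell, and the clusters matched to ABI5 itself were hardly read in either group. FPKM, the unit that allows genes to be compared, counts fragments scaled to the length of the transcript and to the size of the library. The summed level of the 19 clusters was 58.8, 61.4 and 61.2 FPKM in control 1 to 3 and 123, 126 and 126 FPKM in cold 1 to 3. All cold libraries lay above all control libraries, with means of 60.5 ± 1.45 and 125 ± 1.73 FPKM (SD, n = 3 each), a ratio of 2.07.

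In control leaves, the DPBF3-type clusters had the highest level per length, at 22.2 ± 0.833 FPKM (SD, n = 3), followed by the ABF4-type at 17.9 ± 0.534, the ABF2-type at 11.2 ± 0.417 and the DPBF4-type at 8.82 ± 0.785 FPKM. No neighbours in this order overlapped between libraries. In the cold, the ABF2-type came first with 52.72, 52.27 and 47.46 FPKM in cold 1 to 3, and the DPBF3-type followed with 38.76, 43.57 and 47.75 FPKM. These types overlapped, since in cold 3 the DPBF3-type was slightly the higher. The ABF4-type came next at 28.6 ± 0.870 FPKM and the DPBF4-type was far below at 2.10 ± 0.572 FPKM (SD, n = 3 each). The ABI5-type stayed at or below 0.810 FPKM in every library of both groups.

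**Figure D1:**
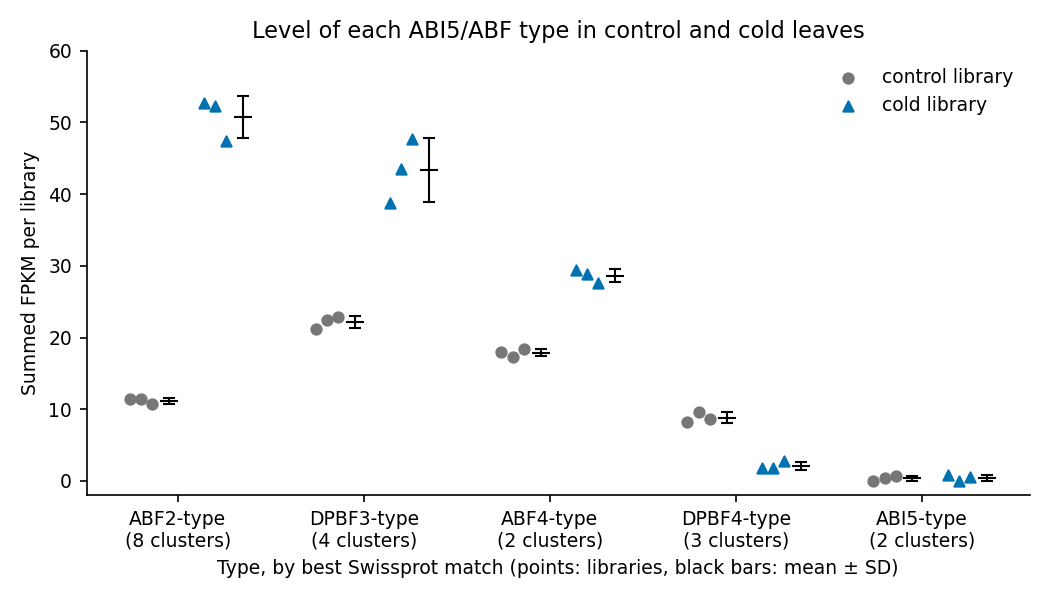
Summed FPKM (y axis) of the clusters of each type (x axis), grouped by best Swissprot match, in 3 control libraries (grey circles) and 3 cold libraries (blue triangles), with black bars for the mean ± SD. The mean of the ABF2-type went from 11.2 to 50.8 FPKM and from below to above those of the DPBF3- and ABF4-types. In cold 3 the DPBF3-type was still slightly the higher. The mean of the DPBF4-type went from 8.82 to 2.10 FPKM.

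Of the 19 clusters, 10 passed the filter on low counts and were tested with edgeR among 5004 clusters. By this test 6 of the 10 were higher in the cold, 0 were lower and 4 did not pass the threshold, an adjusted p of 0.05. At an unadjusted p under 0.05, 1 was lower by edgeR, and DESeq2 and limma each called 1 lower after adjustment. Of all clusters tested, 21.9% were called higher and 23.6% lower. The median log2 fold change of the 10 clusters was 1.20, against −0.14 over all clusters. The groups did not overlap in 7 of the 10 clusters, 6 with every cold library above and 1 with every cold library below, while 29.6% and 34.3% of all clusters had such a separation. Several clusters shared an NR entry and could split reads between them, so the counts were also summed by NR entry. Of the 7 sums, 5 were tested among 2296, of which 4 were higher and 1 was lower, beside 34.6% and 37.7% of all sums. Their groups did not overlap, as in 36.6% (cold above) and 41.2% (cold below) of all sums. The median log2 fold change of the 5 sums was 1.35, against −0.08 over all sums.

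**Figure D2:**
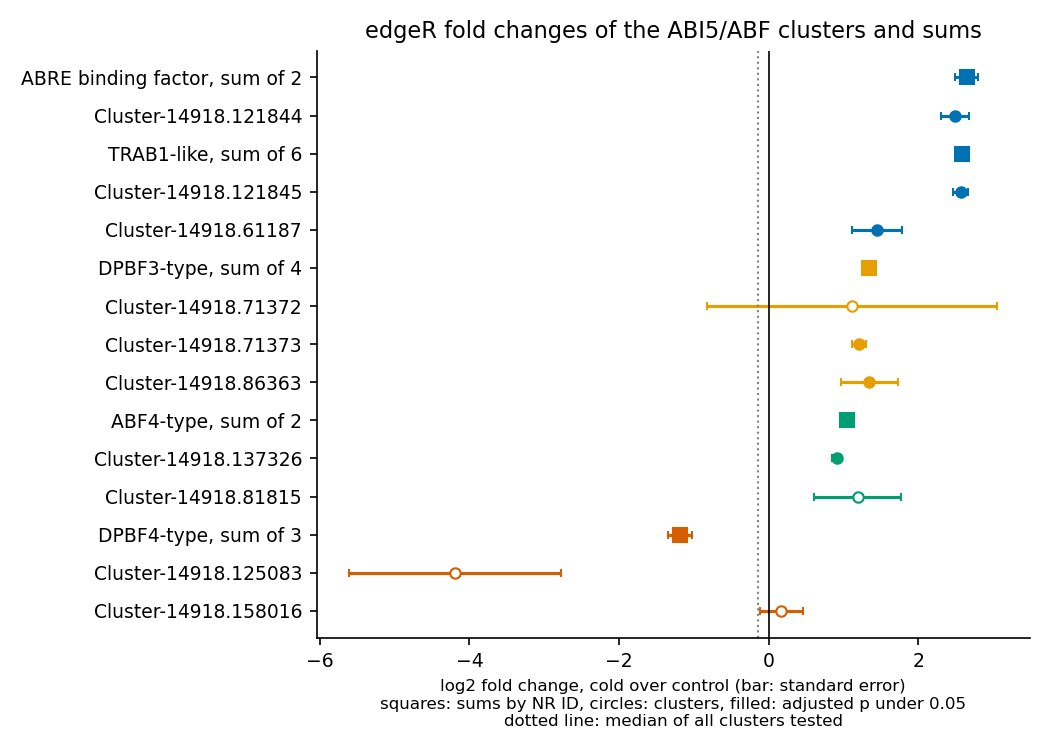
The edgeR log2 fold change of cold over control (x axis, bars for the standard error) for the 5 sums by NR entry (squares) and the 10 tested clusters (circles), coloured by type and filled where the adjusted p was under 0.05, with a dotted line at the median of all clusters, −0.14. The ABRE binding factor and TRAB1-like sums stood at 2.65 and 2.59, the DPBF3- and ABF4-type sums at 1.35 and 1.05, and the DPBF4-type sum at −1.19.

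The ABF2-type held 8 clusters, all matched in Swissprot to ABI5-like protein 5 of Arabidopsis (gene ABF2), a central ABA activator in vegetative tissue. In NR, 6 of them matched a TRAB1-like protein of Nicotiana tomentosiformis and 2 an ABRE binding factor of Nicotiana tabacum. TRAB1 is known from rice as a bZIP protein that mediates ABA-regulated transcription. The TRAB1-like sum was 9.89, 9.81 and 9.08 FPKM in control 1 to 3 and 43.47, 45.63 and 40.27 FPKM in cold 1 to 3. The groups were far apart and each library stayed close to its own group. Its log2 fold change by edgeR was 2.59 (SE 0.07, adjusted p = 1.21e-08). The ABRE binding factor sum was lower in level, with 1.50, 1.64 and 1.62 FPKM in control 1 to 3 and 9.25, 6.64 and 7.19 FPKM in cold 1 to 3, and cold 1 was the highest. Its log2 fold change was 2.65 (SE 0.15, edgeR adjusted p = 1.21e-06). Both sums moved by a like amount, and of the 2296 sums tested 10.2% had a larger log2 fold change than the ABRE binding factor sum and 10.6% a larger one than the TRAB1-like sum. Over all 8 clusters the level went from 11.2 to 50.8 FPKM and the log2 fold change was 2.57 (SE 0.06, edgeR adjusted p = 5.43e-09).

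A single cluster carried most of the ABF2-type counts. Cluster-14918.121845, 2268 bases long with a coding part of 1548 bases, held 64.9, 74.8 and 70.5% of the type's counts in control 1 to 3 and 74.5, 75.5 and 75.6% in cold 1 to 3. Normalized CPM are the counts scaled to the total of the tested clusters (CPM) after TMM normalization. For this cluster they were 232, 282 and 247 in control and 1546, 1556 and 1419 in cold libraries. The cold libraries were all several times above the control libraries, and the log2 fold change was 2.57 (SE 0.10, edgeR adjusted p = 1.55e-05). Cluster-14918.121844 was the main ABRE binding factor cluster (2467 bases). It shared the length of 188 bases before the coding part with Cluster-14918.121845. It had 1494 instead of 1548 bases in the coding part and 785 instead of 532 bases after it. It stood at 54.4, 60.4 and 60.2 normalized CPM in control and 402, 288 and 294 in cold libraries, again without overlap. Its log2 fold change was 2.49 (SE 0.19, edgeR adjusted p = 0.00022).

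The third tested cluster of the type, Cluster-14918.61187 (1702 bases), was a shorter transcript whose predicted coding part of 1298 bases ran to its end. It was at 66.0, 34.6 and 39.8 normalized CPM in control and 115, 156 and 113 in cold libraries. Control 1 was the highest control library and still lay below all cold libraries. The log2 fold change was 1.45 (SE 0.34, edgeR adjusted p = 0.0169), and the call was lost without control 2 (adjusted p = 0.0594), without control 3 (0.0696) or without cold 2 (0.0561). Its share of the type's counts was 18.5, 9.16 and 11.3% in control libraries and 5.54, 7.57 and 6.05% in cold libraries, so every cold share was below every control share.

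The other 5 ABF2-type clusters had too few reads to be tested. Cluster-14918.55626 gave 4.86, 0 and 4.24 normalized CPM in control and 11.9, 17.8 and 16.4 in cold libraries, without overlap. The 3 clusters with 551 bases before the coding part had no count in any control library. Of these, Cluster-14918.71810 reached 0, 20.8 and 12.3 normalized CPM in cold 1 to 3 (0, 14.17 and 8.77 estimated counts), and Cluster-14918.101745 reached 0, 2.97 and 21.8 (0, 1.65 and 16.04 counts). Both were at 0 in cold 1, so the groups met at 0, and the reads of Cluster-14918.101745 came almost wholly from cold 3. The longest member, Cluster-14918.64591 (2873 bases), was listed at 0 in all 6 libraries, and Cluster-14918.121841 had reads worth 17.8 normalized CPM in cold 2 and next to none elsewhere. Together the clusters with 551 bases before the coding part made up 0, 1.14 and 1.80% of the type's counts in cold 1 to 3.

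The DPBF3-type held 4 clusters, matched to ABI5-like protein 2 of Arabidopsis (gene DPBF3, also called AREB3), a family member that binds the ABA-responsive element and is best known from seeds. Their sum was 21.23, 22.48 and 22.81 FPKM in control 1 to 3 and 38.76, 43.57 and 47.75 FPKM in cold 1 to 3. The groups did not overlap, and the cold libraries were spread more widely than the control libraries. The log2 fold change of the sum was 1.35 (SE 0.08, edgeR adjusted p = 1.79e-06), and in FPKM the ratio was 1.96.

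The 4 DPBF3-type clusters were the 4 combinations of 294 or 568 bases before the coding part with 322 or 986 bases after it. The coding part also differed, with 1005 bases in the forms with 322 bases after it and 984 in those with 986. The form with 294 and 322 bases, Cluster-14918.71373 (1621 bases), held 88.9 to 91.6% of the type's counts over the 6 libraries. It stood at 446, 471 and 483 normalized CPM in control and 960, 1079 and 1209 in cold libraries, and all cold libraries were higher. Its log2 fold change was 1.21 (SE 0.10, edgeR adjusted p = 0.000293). The form with 568 and 322 bases, Cluster-14918.86363, was at 21.4, 44.3 and 42.4 normalized CPM in control and 80.4, 114 and 81.8 in cold libraries, also without overlap. Its log2 fold change was 1.35 (SE 0.38, edgeR adjusted p = 0.0327), but leaving out any library of the 6 lifted the adjusted p to between 0.0571 and 0.0961.

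The 2 forms with 986 bases after the coding part were minor and did not separate the groups. Cluster-14918.71372 read 24.3, 0 and 0 normalized CPM in control and 23.8, 1.49 and 27.3 in cold libraries. Its log2 fold change was 1.12 (SE 1.94, edgeR adjusted p = 0.679) and became 6.96 (adjusted p = 0.076) without control 1, which held all of its control reads. Cluster-14918.86364 was not tested. The share of the type's counts in clusters with 568 bases before the coding part was 7.95 to 9.40% in control and 8.24 to 9.87% in cold libraries, so these ranges overlapped.

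The ABF4-type held 2 clusters matched to ABI5-like protein 7 (gene ABF4, also called AREB2), which in Arabidopsis acts with ABF2 in the ABA response of leaves. Their sum was 18.02, 17.33 and 18.38 FPKM in control 1 to 3 and 29.38, 28.85 and 27.68 FPKM in cold 1 to 3. The libraries of each group lay within a narrow band and the bands were well apart. The log2 fold change was 1.05 (SE 0.05, edgeR adjusted p = 2.77e-07), and the FPKM ratio was 1.60. Cluster-14918.137326 (2549 bases) carried 93.0 to 98.5% of the type's counts. It was at 651, 637 and 679 normalized CPM in control and 1299, 1214 and 1179 in cold libraries, with a log2 fold change of 0.91 (SE 0.06, edgeR adjusted p = 0.000146).

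The other ABF4-type cluster, Cluster-14918.81815, had a coding part of 1224 instead of 1296 bases. It read 29.1, 25.8 and 23.7 normalized CPM in control and 20.8, 90.7 and 68.1 in cold libraries. Cold 1 was the lowest of all 6 libraries, while cold 2 and cold 3 were above every control library. The log2 fold change was 1.19 (SE 0.58, edgeR adjusted p = 0.151), and without cold 1 it was 1.60 (adjusted p = 0.0217). That fit drops the cold library that lay below the controls, so it is no separate result. Leaving out any other library gave 0.75 to 1.21 without a call (edgeR adjusted p = 0.265 to 0.403).

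The sum of the DPBF4-type moved the other way. Its 3 clusters were named ABI5-like protein 2 isoform X1 of Sesamum indicum in NR and ABI5-like protein 3 (gene DPBF4) in Swissprot. These names disagree, since ABI5-like protein 2 is the Swissprot name of DPBF3. The Swissprot score was 335, the lowest of the members. The type is called by its Swissprot match here, and which of the names is right was not tested. DPBF4 is also called EEL, and in Arabidopsis seeds it is known to oppose ABI5 at a late embryogenesis gene. The sum was 8.16, 9.69 and 8.62 FPKM in control 1 to 3 and 1.76, 1.78 and 2.76 FPKM in cold 1 to 3. Every cold library was below every control library, with cold 3 the highest of the cold group. The sum fell, with a log2 fold change by edgeR of −1.19 (SE 0.16, adjusted p = 0.000273). In FPKM the level was 4.20-fold lower, and in normalized counts of the sum 2.29-fold lower, while the whole-library CPM were 11.7 and 3.93. These measures differ in the scaling between libraries and, for FPKM, also in the weight of cluster length.

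Of the 3 clusters, which all had a coding part of 810 bases, 1 separated the groups. Cluster-14918.125083 (1389 bases, with 444 before and 135 after the coding part) stood at 127, 139 and 121 normalized CPM in control and 0, 0 and 20.4 in cold libraries. No reads were assigned to it in cold 1 and cold 2, and cold 3 was far below the controls. The counts are estimates, and how reads shared with the other clusters of the type were divided was not tested. The estimated counts were 130.91, 173.49 and 143.25 in control and 0, 0 and 15.42 in cold libraries. At cluster level the log2 fold change was −4.19 (SE 1.42, edgeR adjusted p = 0.0578) and did not pass the threshold. Without cold 3, the only cold library with counts, it was −9.95 and passed (edgeR adjusted p = 0.00116). That fit leaves only cold libraries at 0, so it is no separate result. Leaving out any other library gave −3.64 to −4.28 without a call (edgeR adjusted p = 0.0883 to 0.131). Against a floor of 3 counts, cold 1 and cold 2 together were at least 57.9-fold lower than the control mean. These libraries were taken because they stood at 0, and the bound leaves out cold 3. The control to cold ratio of normalized counts over all 3 cold libraries was 18.0, with an exact 95% interval of 10.8 to 32.4 that covers counting error only.

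Cluster-14918.158016 (2229 bases, with 982 before and 437 after the coding part) had reads in all libraries of both groups. It was at 44.7, 66.9 and 73.7 normalized CPM in control and 68.5, 69.9 and 70.9 in cold libraries. The cold libraries lay within the range of the controls, and the log2 fold change was 0.17 (SE 0.29, edgeR adjusted p = 0.664), with −0.07 (adjusted p = 0.877) when control 1 was left out. The third cluster, Cluster-14918.28444, had 6.45 normalized CPM in control 2 and next to none elsewhere. The share of the type's counts in Cluster-14918.158016 thus went from 26.1, 31.2 and 37.8% in control 1 to 3 to 100, 100 and 77.3% in cold 1 to 3.

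**Figure D3:**
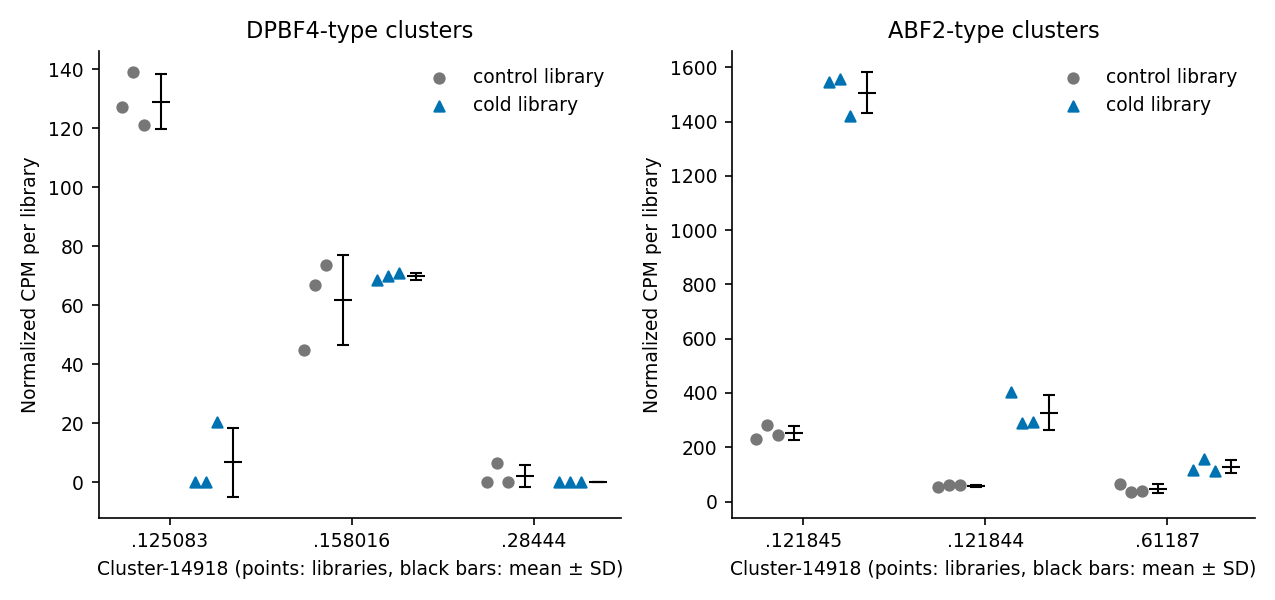
Normalized CPM per library (y axis) of the 3 DPBF4-type clusters (left) and of the 3 tested ABF2-type clusters (right) in control (grey circles) and cold libraries (blue triangles), with black bars for the mean ± SD. On the left, Cluster-14918.125083 went from 121 to 139 in control to 0 to 20.4 in cold libraries while Cluster-14918.158016 stayed between 44.7 and 73.7, and on the right all 3 clusters were higher in every cold library.

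The ABI5-type had few reads. Cluster-5735.0 (1051 bases), named ABI5 of Sesamum indicum in NR, had 7 estimated counts in control 2, 4.53 in cold 1 and 0 in the other libraries. Cluster-7073.0 (731 bases) matched ABI5 in Swissprot, but its NR name was a chloroplast homolog of the division protein FtsZ, so its annotation was in conflict. It had 7 counts in control 3, 2.47 in cold 1, 4 in cold 3 and 0 elsewhere. Neither was tested, and a difference between the groups was not detectable at this depth. Over the 9 clusters of all types that were not tested, the estimated counts per library ran from 0 to 16.04.

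The make-up of the ABI5/ABF message differed between the groups in every library. The ABF2-type made up 19.4, 18.7 and 17.5% of the summed FPKM in control 1 to 3 and 42.7, 41.3 and 37.6% in cold 1 to 3. The ABF4-type went from 30.6, 28.2 and 30.0% to 23.8, 22.8 and 21.9%, although its own level rose. The DPBF4-type went from 13.9, 15.8 and 14.1% to 1.43, 1.41 and 2.19%. The DPBF3-type was at 36.1, 36.6 and 37.2% and at 31.4, 34.5 and 37.8%, and here the groups overlapped.

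The unequal change was compared within libraries, as the ratio of the ABF2-type to each of 3 other types in FPKM. The ratio to the ABF4-type was 0.632, 0.661 and 0.582 in control 1 to 3 and 1.79, 1.81 and 1.71 in cold 1 to 3. The ratio to the DPBF3-type was 0.537, 0.509 and 0.469 in control libraries and 1.36, 1.20 and 0.994 in cold libraries. The ratio to the DPBF4-type was 1.40, 1.18 and 1.24 in control libraries and 30.0, 29.4 and 17.2 in cold libraries. None of the 3 ratios overlapped between the groups, and the mean log2 ratio differed by 1.51, 1.22 and 4.28. Each gave p = 0.1 in a two-sided exact permutation test, also after adjustment over the 3 ratios, which is the smallest p that 3 against 3 libraries allow and above 0.05. Such a ratio is free of the scaling between libraries, but it shows unequal change only. The ratios restate the changes of the types given above and are no separate support. The ratio to the DPBF4-type also carries the weight of cluster length in FPKM. In counts summed by type, the edgeR log2 fold changes were 2.57 for the ABF2-type and −1.22 for the DPBF4-type.

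**Figure D4:**
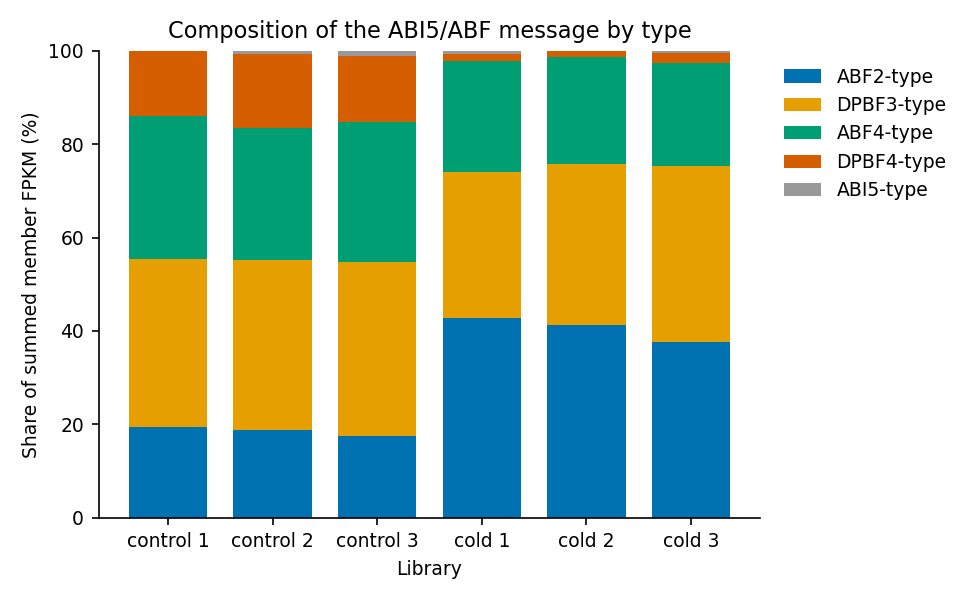
Share of the summed FPKM of the 19 clusters (y axis, percent) held by each type in each of the 6 libraries (x axis), as stacked bars that add to 100. The ABF2-type (blue) took 17.5 to 19.4% in control and 37.6 to 42.7% in cold libraries, and the DPBF4-type (red) 13.9 to 15.8% and 1.41 to 2.19%.

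The sizes of these changes depended on the scaling. Scaling to whole libraries moved the median log2 fold change of all sums from −0.08 to −0.44 and their calls from 795 higher and 866 lower to 642 higher and 1088 lower. The member sums then stood at 2.29 for the ABRE binding factor, 2.22 for the TRAB1-like, 0.98 for the DPBF3-type, 0.68 for the ABF4-type and −1.56 for the DPBF4-type, all still past the threshold by edgeR.

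The other 378 bZIP clusters of the table moved in both directions, as did all clusters. Of these, 169 were tested, 38 were higher and 27 lower by edgeR, and their median log2 fold change was 0.29. Summed by NR entry, 22 of 62 were higher and 23 lower, close to the 34.6% and 37.7% of all sums. Of all clusters tested, 21.9% were higher and 23.6% lower (median −0.14), which is the background for the G-box clusters below too. Among the 40 clusters of other proteins that bind G-box motifs (the GBF and CPRF proteins and the light-response factor HY5), 22 were tested, 7 were higher, 2 were lower and the median was 0.78. The largest rises were those of Cluster-14918.70425, a GBF1-like cluster, from 2.27 ± 3.92 to 69.8 ± 29.2 normalized CPM (SD, n = 3), and of Cluster-14918.108203, named common plant regulatory factor 1, from 230 ± 14.7 to 3830 ± 73.7. Their log2 fold changes were 4.92 (SE 1.50, edgeR adjusted p = 0.0412) and 4.06 (SE 0.06, adjusted p = 1.34e-06). Control 1 held nearly all control reads of Cluster-14918.70425, and without it the log2 fold change was 8.94 (edgeR adjusted p = 0.00928). Leaving out any other library gave 4.28 to 5.23 and lifted the adjusted p to between 0.0661 and 0.111. The 2 lower ones were Cluster-14918.141744, named HY5, at −1.61 (SE 0.20, edgeR adjusted p = 0.00146), and Cluster-14918.193270, named G-box-binding factor 4, at −0.54 (SE 0.13, adjusted p = 0.0182). Of 4 tested HY5 clusters, 1 was lower and 3 were not called. Summed by NR entry, the HY5 sum with Cluster-14918.141744 was at −1.44 (edgeR adjusted p = 8.94e-05). The other tested HY5 sums were at 0.17 (0.413) and 0.26 (0.246), without a call. The call of Cluster-14918.193270 was lost without cold 1 (edgeR adjusted p = 0.0554) or without control 3 (0.0503).

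G-box-binding factor 4 carries the same orthology name as the members and is their nearest neighbour in the table by annotation. Its 2 NR sums were at 97.3 ± 6.71 and 11.7 ± 0.859 FPKM in control and at 79.4 ± 5.30 and 6.35 ± 1.04 FPKM in cold libraries (SD, n = 3 each). The smaller one fell, with a log2 fold change of −0.52 (SE 0.13, edgeR adjusted p = 0.00609). The larger one had a log2 fold change of 0.21 (SE 0.07, edgeR adjusted p = 0.0203) that turned to −0.07 (0.359) with library totals and −0.15 (0.0557) with whole-library totals. With limma on log2(FPKM + 1) it was −0.29 (adjusted p = 0.00554), and on log2(FPKM + 0.1) also −0.29 (0.00709), so it was called lower there and its direction depended on the scaling. Without control 1, 2 or 3 its adjusted p was 0.0779, 0.0513 or 0.0784.

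Of the other regulators tied to the ABA response, 108 clusters were listed and 74 tested, of which 21 were higher and 29 lower, with a median log2 fold change of −0.79. Over all clusters tested, 21.9% were higher and 23.6% lower, with a median of −0.14. Here too, clusters of 1 NR entry could split reads. Summed by NR entry, these clusters, the G-box ones above and the ABI4 cluster below gave 52 sums, of which 36 were tested. Of those, 15 were higher and 15 lower, beside 34.6% and 37.7% of all sums. Their median was 0.18, against −0.08 over all sums. Of 37 tested clusters of MYB44, a MYB factor known in Arabidopsis to hold down phosphatase genes of the ABA pathway, 18 were higher and 5 lower. Of 15 tested clusters of WRKY40, 11 were lower and 0 higher, and of 6 of WRKY18, 5 were lower and 0 higher. For both, 0 were higher also at an unadjusted p under 0.05 in edgeR, DESeq2 and limma. These WRKY factors are known in Arabidopsis as repressors of ABA-response genes such as ABI5. Of 5 tested clusters of MYC2, a G-box-binding bHLH factor of the jasmonate and ABA responses, 4 were lower and 0 higher by edgeR. By edgeR, 0 of them were higher also at an unadjusted p under 0.05. DESeq2 called 0 higher after adjustment and 1 at an unadjusted p under 0.05, and limma called 1 higher.

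The largest rises of that list were in the MYB44-like Cluster-14918.58902, from 0.565 to 129 normalized CPM, and Cluster-14918.72698, from 2.59 to 323, with edgeR log2 fold changes of 7.50 (adjusted p = 0.00343) and 6.98 (adjusted p = 0.00708). For both, 2 of the 3 control libraries were at 0, and the fold rested on the third. With a library left out, the log2 fold change of Cluster-14918.58902 ran from 6.85 (without cold 1) to 9.79 (without control 3) and that of Cluster-14918.72698 from 6.33 (without control 2) to 11.15 (without control 1), and each stayed past the threshold. The largest falls were in the MYB44-like Cluster-14918.146830, from 74.5 normalized CPM to 0 in every cold library, at least 51.6-fold lower when the group is set to a floor of 3 counts in all (edgeR adjusted p = 0.00231), and in the WRKY40 Cluster-14918.109737, from 249 to 8.92. The latter had a log2 fold change of −4.79 (edgeR adjusted p = 0.0163), which lost its call without cold 1 (0.0508) or control 3 (0.0535). It was −6.78 (edgeR adjusted p = 0.00627) without cold 2, which held most of its cold reads, and −4.19 (0.0126) without cold 3. ABI4, an AP2 factor that acts with ABI5 in seedlings, had 1 cluster, which was not tested.

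The clusters whose level followed the summed ABI5/ABF level most closely over the 6 libraries were named APRR5, heat stress factor A-3, auxin-induced protein 22D-like, DREB1B-like and HAT5, with Pearson r from 0.9997 to 0.9999. The points share libraries and fall into 2 groups, so r mostly follows the difference between control and cold. Among 4994 clusters outside the members, 308 (6.17%) had r above 0.99. The DREB1B-like Cluster-14918.12168, related to the CBF factors of the cold response, went from 0.551 ± 0.478 to 2005 ± 79.4 normalized CPM (SD, n = 3).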

How the data were processed

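Leaf RNA of 3 control and 3 cold Verbena bonariensis libraries was prepared with an Illumina TruSeq kit and sequenced. The authors deposited 1 table of transcription factors and other regulators, with 10251 lines for 9740 clusters, of which 492 stood on more than 1 line and entered once. It gives estimated counts as the authors deposited them, raw and with decimals, which were rounded before the tests. The FPKM values deposited by the authors take account of cluster length and of whole-library depth. The submitters' processing notes name Bowtie2 2.0.6 and TopHat2 2.0.12, while for assembler, counting program and strand setting nothing is given in the sources used here. Columns with the log2 ratio, q value and up or down mark of the authors were left unused. Coding positions were taken from the table, predicted there from protein matches or, for 2 members, by ESTScan.

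Cold was compared with control by the quasi-likelihood test of edgeR 4.0.16 (R 4.3.3) with TMM factors, filterByExpr (minimum count 10) and Benjamini-Hochberg adjustment over all features tested, at a threshold of 0.05. The fits covered all clusters and, separately, counts summed by NR entry. For summing and for types, no cluster outside the members shared an NR or Swissprot entry with them. Whole-library totals were solved from count and FPKM of clusters with at least 5 FPKM and 1000 bases, with a median misfit of 0.0152 to 0.0168%. Intervals and floors (3 counts) cover counting error only. Other settings used DESeq2 1.42.0, limma 3.58.1 on log2(FPKM + 1) and log2(FPKM + 0.1), other scalings and filters, a replicate block and each library left out.

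Tested members could all be named, with full values for those past the threshold and those with the highest normalized CPM. Of the other lists, the largest 2 changes in each direction were named among called clusters without overlap between groups, and the 5 clusters most correlated with the summed member level. The members and lists were chosen with earlier results of these data known. No sequences were used here.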

Additional observations from a re-analysis of the deposited data

How the results depend on the processing

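The 5 sums by NR entry kept their direction and their call under every setting tried, each library left out included. At cluster level, the number of members called higher was 6 and ran from 4 to 7 with a library left out. It was 3 when members were chosen by the NR name alone, which leaves 10 clusters. The number called lower was 0 and became 1, always Cluster-14918.125083, with whole-library totals, DESeq2, the stricter filter, limma on log2(FPKM + 1) and limma on log2(FPKM + 0.1). With a library left out it ran from 0 to 1, with 1 only without cold 3. The log2 fold change of Cluster-14918.158016, which was never called, turned to −0.06 with whole-library totals, to −0.03 and −0.04 with limma at a pseudocount of 1 and 0.1, and ran from −0.07 to 0.28 with a library left out. The call of Cluster-14918.86363 was also lost with whole-library totals (edgeR adjusted p = 0.0571) and with no filter (0.0767). The cause of these moves was not tested. Same-numbered libraries of the 2 groups did not deviate together (r of −0.0302, −0.0144 and −0.00518), so the numbers do not pair them. With a replicate block the members called higher were 4, with Cluster-14918.86363 at an adjusted p of 0.0736 and Cluster-14918.61187 at 0.0767, and calls over all clusters went from 1094 to 640 higher and from 1182 to 671 lower. The depth left 9 of 19 members untested.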

Other observations

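A protein named ARM REPEAT PROTEIN INTERACTING WITH ABF2, known in Arabidopsis as a partner of ABF2, was in the table but outside the lists and was chosen after its values were seen. Its main NR sum of 8 clusters was at 42.59, 46.33 and 46.39 FPKM in control 1 to 3 and at 16.38, 17.79 and 17.78 FPKM in cold 1 to 3. Every cold library was below every control library, and the sum fell, with a log2 fold change by edgeR of −0.97 (SE 0.06, adjusted p = 1.77e-06). Within the sum, Cluster-14918.93273 (2152 bases) went from 1049 ± 54.9 to 282 ± 54.4 normalized CPM (SD, n = 3 each; log2 fold change −1.90, edgeR adjusted p = 0.00025), while Cluster-14918.96364 (2238 bases) went from 48.8 ± 7.91 to 159 ± 25.4 (log2 fold change 1.70, edgeR adjusted p = 0.00282).

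Clusters of 1 NR entry thus went in opposite directions there. In the DPBF4-type, 1 cluster had no reads assigned in 2 of 3 cold libraries beside another at a like level in both groups. Whether such clusters are splice forms, alleles or gene copies was not tested.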
